A study of Mus musculus with 24 samples.

Results

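Genes of the monocyte lineage were followed through LSK cells, the sorted fraction of mouse bone marrow that is negative for lineage markers and positive for Sca-1 and Kit and that contains stem cells and multipotent progenitors. They are the 9 genes Ly6c2, Fcgr3, Ccr2, Csf1r, Irf8, Klf4, Ly86, Igsf6 and Tifab, of 26267 genes in the deposited table. They were chosen by their roles as monocyte receptors and fate factors and on earlier results of these same libraries for poly(I:C) against PBS, so their values in that contrast are given here as a description, with no test. All 9 had at least 10 normalized counts in at least 2 libraries and entered the fits of 12628 genes.

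Polyadenylated RNA of 24 libraries was read after treatment with poly(I:C) (Poly(IC) in the labels), a double-stranded RNA mimic that sets off the interferon response, or with PBS as the vehicle. With poly(I:C) there were 2 libraries of FancgKO_Mdm4Tg, 3 of FancgKO, 2 of Mdm4Tg and 3 of WT, and with PBS there were 3 of FancgKO_Mdm4Tg, 4 of FancgKO, 3 of Mdm4Tg and 4 of WT. FancgKO mice lack Fancg, a gene of the Fanconi anemia DNA repair complex, Mdm4Tg mice carry a transgene of the p53 inhibitor Mdm4, and FancgKO_Mdm4Tg mice have both. The promoter of the transgene, the dose and timing of poly(I:C), and the age and number of mice are not given in the sources used here, and no label says that replicates were separate animals, so the p-values rest on the spread among libraries, which may be technical. Each library title opens with a number (2, 4, 6, 7 or 8), used here as the replicate number, and ends in "d" (numbers 6 and 7, 12 libraries) or "d_2" (numbers 2, 4 and 8, 12 libraries), and the labels do not say what either marks.

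Monocytes are made in the bone marrow from progenitors that have already left the LSK fraction. On that path the transcription factors PU.1 and Irf8 steer progenitors toward monocytes and dendritic cells and away from neutrophils, and Klf4 acts further along in monocyte maturation. The growth factor receptor Csf1r keeps the cells alive, and the chemokine receptor Ccr2 lets them leave the marrow. The surface protein Ly6C marks the inflammatory (classical) monocytes of the mouse, which carry Fc gamma receptor III, as other myeloid cells do.

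Depth ran from 1697596 to 8229715 reads per library with poly(I:C) (median 4251220), against 807686 to 4801746 reads with PBS (median 1540399). Mdm4 had 5023 to 7105 normalized counts in the 10 transgenic libraries and 751 to 1293 in the other 14, as the labels have it, whereas the count of Fancg cannot check the knockout. The genes of the sort were read in all libraries: Kit, the stem cell factor receptor, had a median of 1660 normalized counts with poly(I:C) and 2057 with PBS, and Ly6a, which encodes Sca-1, a median of 25.5 with poly(I:C) and 32.6 with PBS. Markers of blood cell lineages were mixed. Of 10 macrophage genes 7 were too low to be fitted, C1qa among them with at most 3.73 normalized counts, as were 7 of 8 T and NK cell genes, 4 of 7 B cell genes and 5 of 13 neutrophil granule genes. The 5 low granule genes, Ly6g among them, had at most 8.45 normalized counts. The other genes of these lists were read, with up to 354 normalized counts for Nkg7, 37.3 for Cd79b and 29.8 for Cd163, and Mpo of the granule list reached 16380. Of 30 monocyte genes outside the 9, 7 were too low, among them Cd14 and the high-affinity Fc receptor Fcgr1, with at most 10.2 and 2.65 normalized counts. The other 23 were read, and 13 of them reached 100 normalized counts in some library. Lyz2, the lysozyme of myeloid cells, had 168 to 251 with poly(I:C) and 106 to 237 with PBS.

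The promoters of the genes are shown because 8 of the 9 genes varied together over the libraries, and because binding sites of PU.1 and of C/EBP factors are common near the starts of monocyte genes. RefSeq promoters (GRCm38.p6, 250 bases before to 50 after the start, 5′ to 3′ on the strand of the gene) were read for 8 of the 9 genes. The PU.1 core GAGGAA, searched on both strands, lay in the first promoter of 3 of the 8, Ly6c2, Fcgr3 and Igsf6, against 28.3% of 32851 promoters of the same length. The C/EBP motif TTGCNNAA lay in 1 of the 8, Fcgr3, against 10.8% of all promoters. The interferon response element GAAANNGAAA lay in none of the 8, against 3.44% of all promoters, and the composite ETS-IRF motif GGAANNGAAA also in none, against 2.72%. The 4 promoters below are those of the 3 genes with a PU.1 core and that of Klf4, the gene that stood apart from the rest. They lie on the minus strand, that of Ly6c2 at chr15:75111922-75112221, of Fcgr3 at chr1:171059354-171059653, of Igsf6 at chr7:121074481-121074780 and of Klf4 at chr4:55532426-55532725. Capitals mark the motifs, TTCCTC being the PU.1 core and TTAAGCAA the C/EBP motif read on the other strand.

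Ly6c2: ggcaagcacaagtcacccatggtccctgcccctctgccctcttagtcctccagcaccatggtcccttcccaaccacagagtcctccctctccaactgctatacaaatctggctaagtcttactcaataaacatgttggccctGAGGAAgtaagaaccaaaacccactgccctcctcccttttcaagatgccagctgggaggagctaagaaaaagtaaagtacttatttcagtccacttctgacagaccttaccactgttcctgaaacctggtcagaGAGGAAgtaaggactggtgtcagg
Fcgr3: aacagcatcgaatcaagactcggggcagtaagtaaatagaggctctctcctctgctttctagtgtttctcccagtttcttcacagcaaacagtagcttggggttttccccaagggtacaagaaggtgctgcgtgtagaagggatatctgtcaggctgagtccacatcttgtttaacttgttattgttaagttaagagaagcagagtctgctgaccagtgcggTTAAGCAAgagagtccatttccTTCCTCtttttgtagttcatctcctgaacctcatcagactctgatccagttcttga
Igsf6: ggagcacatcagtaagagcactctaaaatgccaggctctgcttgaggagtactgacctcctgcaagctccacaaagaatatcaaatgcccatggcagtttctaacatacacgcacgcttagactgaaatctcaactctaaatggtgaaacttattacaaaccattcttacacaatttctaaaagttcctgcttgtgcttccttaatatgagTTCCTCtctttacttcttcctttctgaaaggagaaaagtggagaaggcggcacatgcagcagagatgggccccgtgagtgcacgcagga
Klf4: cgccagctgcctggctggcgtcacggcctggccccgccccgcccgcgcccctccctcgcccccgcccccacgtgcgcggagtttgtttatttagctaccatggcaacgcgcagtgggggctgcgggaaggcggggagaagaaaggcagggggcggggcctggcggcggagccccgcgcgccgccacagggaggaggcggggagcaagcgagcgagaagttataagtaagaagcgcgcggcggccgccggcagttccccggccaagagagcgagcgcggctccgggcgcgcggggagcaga

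Ly6c2 has 2 copies of the core, which begin at -108 and 27 from the start, Fcgr3 has 1 at -6 beside its C/EBP motif at -28, and Igsf6 has 1 at -39. The printed stretch of Klf4 holds none of the 4 motifs, and neither do the first promoters of Ccr2, Irf8, Ly86 and Tifab, so this does not set Klf4 apart. These matches describe letters and not bound sites.

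Ly6c2 encodes a form of the surface antigen Ly6C and, with Fcgr3, had the largest differences between treatments. Its normalized counts with poly(I:C) were 129 and 592 in FancgKO_Mdm4Tg, 493, 49.9 and 583 in FancgKO, 183 and 325 in Mdm4Tg, and 345, 251 and 422 in WT (in the order of the title numbers). With PBS they were 31.8, 31.9 and 28.9 in FancgKO_Mdm4Tg, 21.9, 31.7, 216 and 71.9 in FancgKO, 19.4, 19.6 and 22.6 in Mdm4Tg, and 7.63, 185, 41.8 and 9.42 in WT. The lowest poly(I:C) library was FancgKO number 7 at 49.9. Of the 14 PBS libraries 3 lay above it, both of number 6 (216 and 185) and FancgKO number 7 (71.9). The number 7 poly(I:C) libraries of FancgKO_Mdm4Tg (129) and Mdm4Tg (183) also lay below both PBS libraries of number 6. Averaged over the 4 genotypes, the difference was 3.05 on the log2 scale of the normalized count plus 1, a scale that understates the change of low genes. It was larger than that of Fcgr3 in Mdm4Tg and WT and smaller in FancgKO (2.06 against 2.39) and FancgKO_Mdm4Tg (3.13 against 3.22). In bulk RNA of this kind, more cells of a type and more RNA per cell cannot be told apart. The gene spans chr15:75108158-75111970 on the minus strand and shares 13.9% of its 50-base stretches with Ly6c1, but Ly6c1 itself had a median of 1.45 normalized counts with poly(I:C) and 0 with PBS.

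Ccr2 encodes the receptor for the chemokine Ccl2, through which monocytes leave the marrow. With poly(I:C) it had 203 and 640.1 normalized counts in FancgKO_Mdm4Tg, 503, 144 and 846 in FancgKO, 186 and 499 in Mdm4Tg, and 363, 387 and 617 in WT. With PBS it had 84.9, 91.4 and 93.5 in FancgKO_Mdm4Tg, 127, 134, 282 and 84.9 in FancgKO, 52.3, 108 and 78.0 in Mdm4Tg, and 49.6, 249.5, 78.6 and 53.0 in WT. Only the 2 PBS libraries of number 6 lay above the lowest poly(I:C) library, and the treatments did not overlap once number 6 was left out. The average difference was 1.95 on the log2 scale. The gene lies at chr9:124101950-124113557, plus strand.

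Fcgr3, the low-affinity receptor for IgG that signals through the common chain Fcer1g, was the member with the fewest reads with PBS. It had 13.0 to 137 normalized counts with poly(I:C) (median 60.8) and 1.91 to 52.6 with PBS (median 4.55), where the lowest value stood for 1 read in the library. As with Ccr2, only the PBS libraries of number 6 reached into the poly(I:C) range, at 52.6 in FancgKO and 38.1 in WT, against at most 9.82 in the other 12. The average difference was 2.89 on the log2 scale, and 9.6% of the 50-base stretches of the gene (chr1:171051174-171064935, minus strand) are shared with Fcgr2b, the inhibitory Fc gamma receptor, so the 2 counts are not fully independent.

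Csf1r, the receptor for the growth factors Csf1 and IL-34, differed less. It had 80.3 to 185 normalized counts with poly(I:C) (median 143) and 25.5 to 218 with PBS (median 65.0), and 5 of the 14 PBS libraries lay above the lowest poly(I:C) library. Both number 6 PBS libraries, 187 in FancgKO and 218 in WT, were above every poly(I:C) library. The average difference was 0.93 on the log2 scale. Of its exons (chr18:61100598-61132149, plus strand), 15.1% overlap Hmgxb3 on the opposite strand, and whether the counts used strand is not given in the sources used here, so reads of the 2 genes cannot be told apart there.

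Irf8, the interferon regulatory factor of the monocyte and dendritic lineages, was already well read with PBS and differed little. It had 193 to 442 normalized counts with poly(I:C) (median 311) and 138 to 373 with PBS (median 212). The ranges overlapped over most of their length, with 9 of 14 PBS libraries above the lowest poly(I:C) library, and the average difference was 0.52, the lowest of the 9 averages. Klf4 averaged 0.87, but was the lower of the pair in FancgKO_Mdm4Tg (0.53, against 0.66 for Irf8) and in the median of 9 same-number pairs (0.00, against 0.51 for Irf8). The gene lies at chr8:120736358-120756694 on the plus strand.

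Ly86 encodes MD-1, the partner of the Toll-like receptor relative Cd180. It had 20.4 to 92.0 normalized counts with poly(I:C) (median 47.9) and 9.91 to 58.4 with PBS (median 19.5), an average difference of 1.19 on the log2 scale. Igsf6, an immunoglobulin-superfamily membrane protein of myeloid cells, had 21.7 to 194 with poly(I:C) (median 138) and 5.72 to 137 with PBS (median 18.6), a difference of 2.41. Tifab, a relative and inhibitor of the TRAF6 adaptor Tifa, had 68.4 to 247 with poly(I:C) (median 193) and 28.6 to 168 with PBS (median 45.3), a difference of 1.73. All 3 ranges overlapped, with 6, 4 and 3 PBS libraries above the lowest poly(I:C) library, and in all 3 that lowest library came from number 7, FancgKO for Igsf6 and Tifab and FancgKO_Mdm4Tg for Ly86. The genes lie at chr13:37345208-37419036 (Ly86, plus strand), chr7:121064067-121074572 (Igsf6, minus strand, inside the Mettl9 region on the other strand without shared exon bases) and chr13:56173704-56178885 (Tifab, minus strand).

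**Figure D1:**
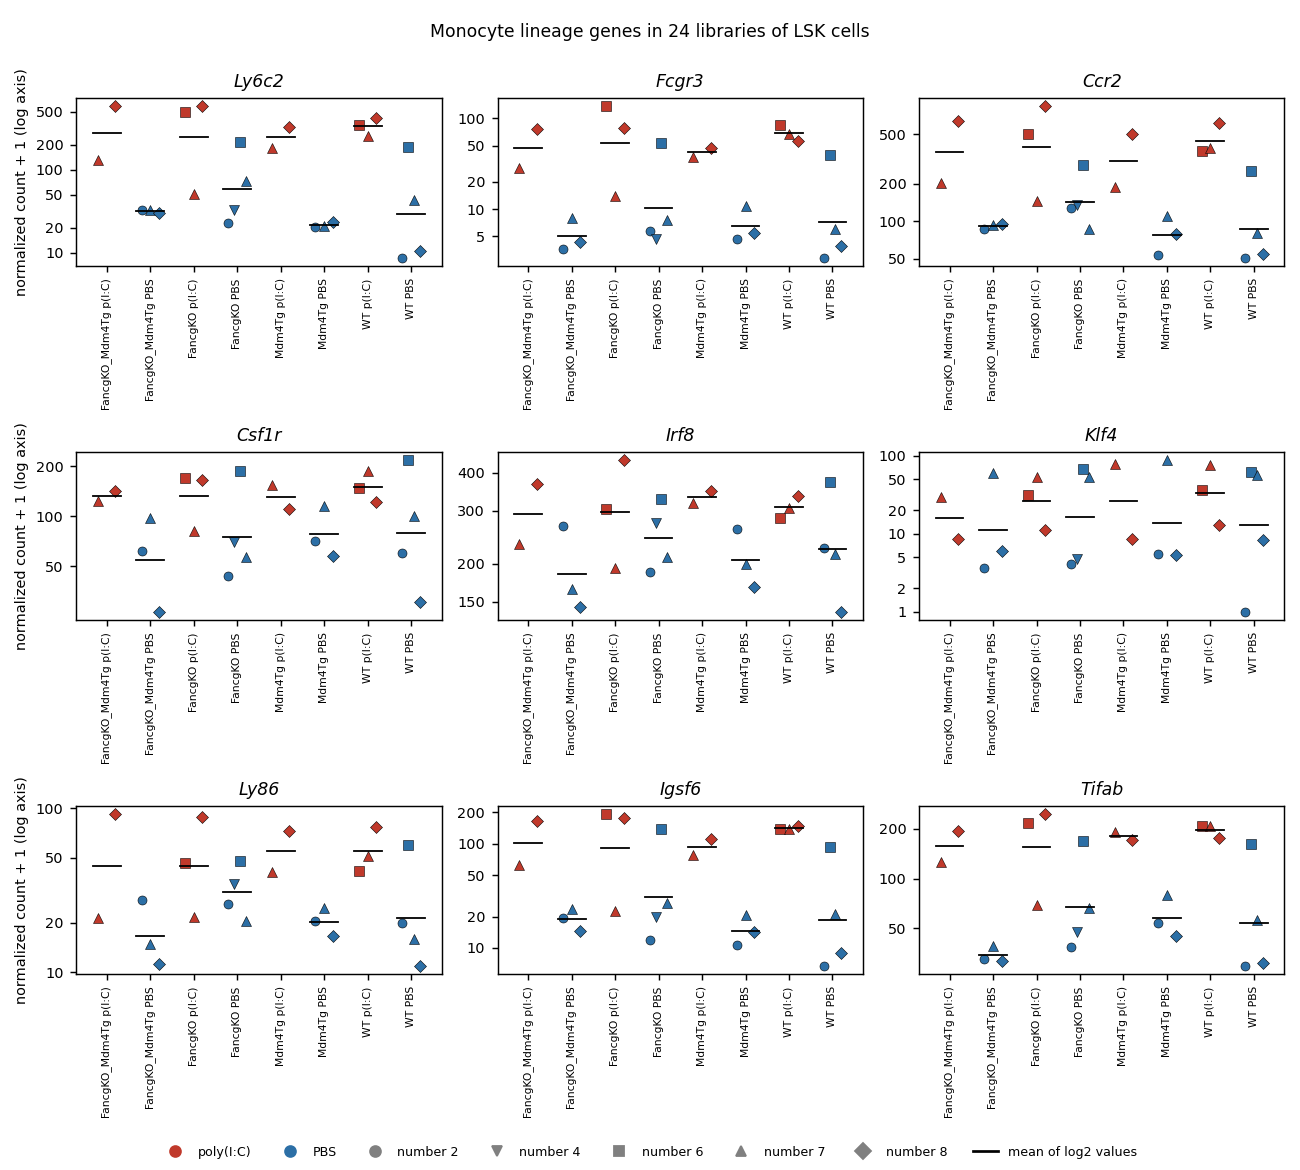
Normalized counts plus 1 (vertical axis, log scale) of the 9 genes in each of the 24 libraries, by genotype with poly(I:C) left of PBS. Each point is a library, its shape gives the title number, and the bar is the mean of the log2 values. The squares of number 6 with PBS stand above the other PBS libraries for Fcgr3, at 52.6 and 38.1 against at most 9.82.

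The median of the 9 average differences was 1.73 on the log2 scale, against 0.01 over all 12628 genes, and it was 1.99 in FancgKO_Mdm4Tg, 1.20 in FancgKO, 1.65 in Mdm4Tg and 1.88 in WT. In FancgKO it was 1.78 without number 7 with poly(I:C) and 0.55 without numbers 2 and 4 with PBS. In the same contrast 11.9% of all genes were higher with poly(I:C) and 11.6% lower at an adjusted p under 0.05 (limma, Benjamini-Hochberg). Since the contrast helped choose the 9 genes, nothing is read from their share. For 8 of the 9 genes the 4 poly(I:C) groups had the 4 highest group means. The exception was Klf4, with 2 of 4. The order of neighbouring group means carried little, because the ranges of neighbours overlapped in 6 of 7 steps for Ly6c2 and Tifab and in 7 of 7 for the other members.

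Per kilobase of exons, the order of the genes differed between treatments. In WT with poly(I:C) Ly6c2 was the most abundant at 124 normalized counts per kilobase, ahead of Ccr2 at 67.4, Igsf6 at 64.8, Tifab at 56.4, Irf8 at 43.6 and Fcgr3 at 39.5, with Csf1r at 26.1, Ly86 at 15.3 and Klf4 at 13.4. In WT with PBS Irf8 was first at 33.6 per kilobase, then Ly6c2 at 22.2, Tifab at 19.6, Csf1r at 17.5, Ccr2 at 15.9, Igsf6 at 14.6, Klf4 at 10.1, Ly86 at 7.05 and Fcgr3 at 6.90. The WT mean with PBS includes number 6, where all 9 genes had their highest WT value with PBS, and the place of Ly6c2 rests on that library. Without number 6 Ly6c2 had 7.16 per kilobase in WT with PBS, below Irf8 at 27.3, Tifab and Csf1r at 10.8 each and Ccr2 at 8.94, whereas with poly(I:C) it remained first at 123.

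The size of the difference varied with the title number. Within 9 pairs of libraries with the same genotype and number, Fcgr3, Ccr2 and Tifab were higher with poly(I:C) in 9 of 9 pairs, Ly6c2 and Igsf6 in 8, Csf1r and Ly86 in 7, Irf8 in 6 and Klf4 in 4. The differences were largest in the 3 pairs of number 8. There the median difference was 4.31 for Ly6c2, 3.82 for Fcgr3, 3.51 for Igsf6 and 2.76 for Ccr2, and all 9 genes had every poly(I:C) library above every PBS library. In the 4 pairs of number 7 the medians were smaller, at 2.27 for Ly6c2, 1.83 for Fcgr3, 1.67 for Igsf6 and 0.96 for Ccr2. In the 2 pairs of number 6 they were 1.04, 1.24, 0.53 and 0.69 for the same genes, and Csf1r, Irf8, Klf4 and Ly86 were lower with poly(I:C) in both pairs (medians -0.36, -0.25, -0.94 and -0.28). FancgKO number 7 was the weakest pair, with 5 of 9 genes higher with poly(I:C) and a median of 0.06, and WT number 8 the strongest, with 9 of 9 and 2.81. Some pairs also differed in Xist, the RNA of the inactive X chromosome of females. With poly(I:C) and PBS it had 20210 and 3.35 normalized counts in WT number 7, and 5943 and 24.8 in WT number 6. In FancgKO it had 362.5 and 18010 in number 7, and 13770 and 7800 in number 6. Libraries of number 8 had at most 1.26. Its part in the pair differences was not tested.

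**Figure D2:**
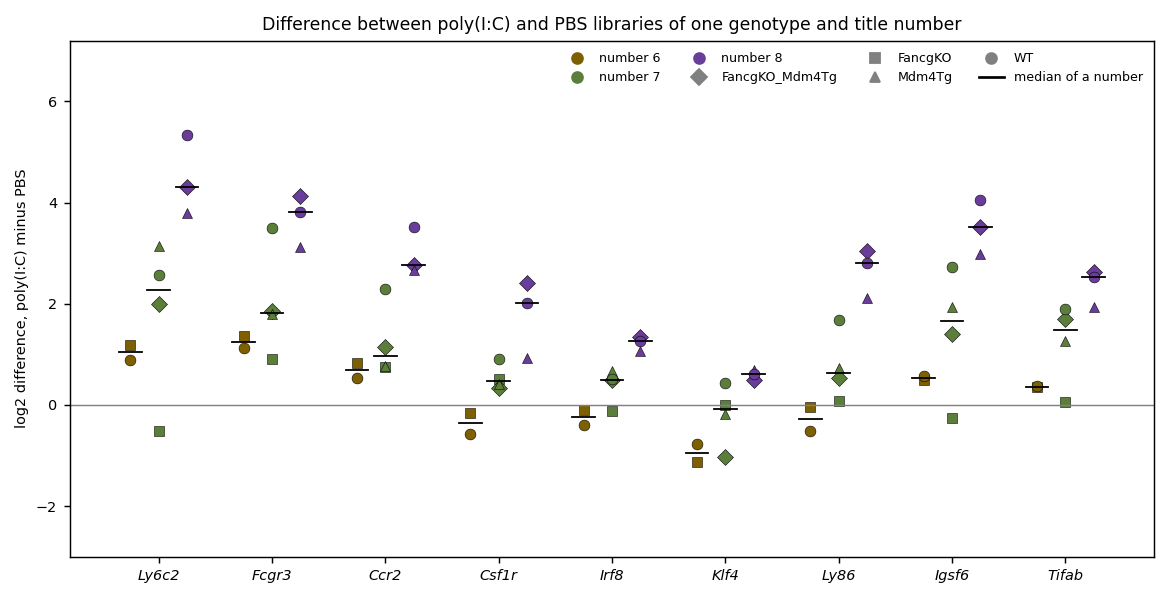
Log2 difference between the poly(I:C) and the PBS library of one genotype and one title number (vertical axis) for the 9 genes, 9 pairs each. Color gives the number, shape the genotype and the bar the median of a number. For Ly6c2 the medians were 1.04, 2.27 and 4.31 in numbers 6, 7 and 8.

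The PBS libraries of number 6 stood apart in other lineage markers too. The summed normalized counts of 13 neutrophil granule genes were 12590 and 13910 in these 2 libraries, against 1604 to 6184 in the other 12 PBS libraries. The sum of 30 further monocyte genes was 4362 and 4530, against 2189 to 3176, and the sum of 10 stem cell genes was 3145 and 3355, against 3734 to 5943. Their part in the values of the 9 genes was not tested.

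Klf4 followed the title ending rather than the treatment. In the 12 libraries whose title ends in "d" it had 28.8 to 88.4 normalized counts (median 57.4), and in the 12 that end in "d_2" it had 0 to 11.9 (median 4.79), with no overlap. Within the "d" libraries it had 28.8 to 78.4 with poly(I:C) (median 43.8) and 52.3 to 88.4 with PBS (median 60.3), so that the PBS libraries were the higher ones on the whole. Within the "d_2" libraries the order was the other way, with 7.55 to 11.9 with poly(I:C) and 0 to 7.43 with PBS, which did not overlap. The value of 0, in WT number 2 with PBS, was 0 reads and allows up to 5.72 normalized counts (3 reads, counting error only).

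The immediate early genes Fos, Jun and Egr1, which cells switch on within minutes of a stimulus, were split the same way. Fos had 1241 to 4035 normalized counts in the "d" libraries and 31.8 to 229 in the "d_2" libraries, and Jun had 1270 to 2897 against 151 to 451, with no overlap for either. Egr1 had 129 to 902 against 12.5 to 293, which overlapped. Their part in the level of Klf4 was not tested. No other member was split without overlap by the ending: Tifab, for example, had 38.0 to 216 in the "d" libraries and 28.6 to 247 in the "d_2" libraries. The Klf4 gene lies at chr4:55527143-55532466 on the minus strand.

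**Figure D3:**
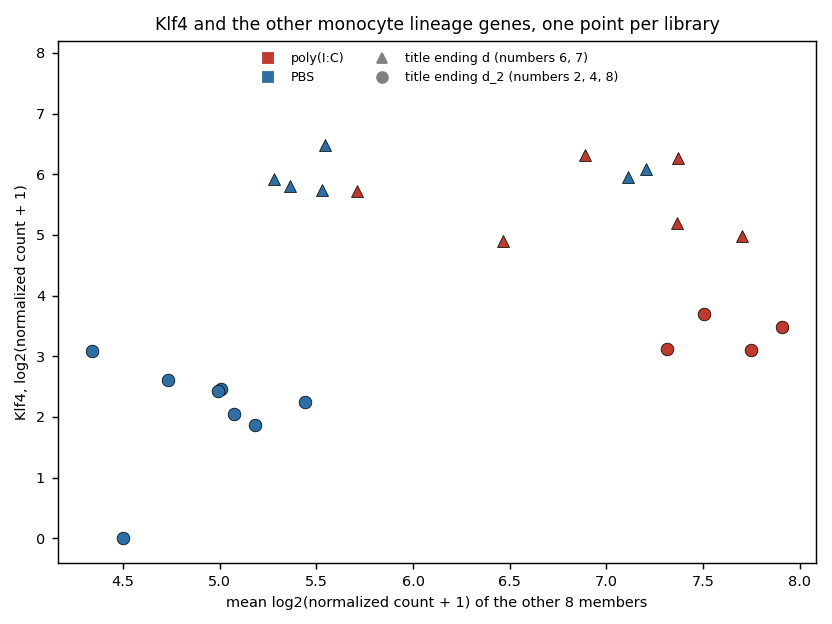
Klf4 (vertical axis) against the mean of the other 8 genes (horizontal axis), both as log2 of the normalized count plus 1, one point per library. Triangles are libraries whose title ends in "d", circles those that end in "d_2", and color gives the treatment. The triangles lie at 28.8 normalized counts of Klf4 or more and the circles at 11.9 or fewer, whatever the treatment.

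As a description over 24 libraries that share treatment groups and depth, the 28 pairs of genes without Klf4 had Pearson correlations of 0.72 to 0.98 (median 0.85), and of 0.60 to 0.97 (median 0.80) once group means were removed. The 8 pairs with Klf4 had 0.13 to 0.60 (median 0.43). The 10 genes outside the group, among those with a mean of at least 50 normalized counts, were closest to the mean of the 9. They were Anxa3 (r 0.967), the coagulation factor subunit F13a1 (0.966), Mtus1 (0.965), the granule protease Ctsg (0.964), Ms4a6c (0.963), Stom (0.962), the heme synthesis enzyme Alas1 (0.962), the neutrophil enzyme Mpo (0.958) and the chaperones P4hb (0.952) and Calr (0.951). With group means removed the 5 closest were Anxa3 (0.963), Mtus1 (0.949), Ctsg (0.948), F13a1 (0.937) and Fndc3b (0.933). Mpo had 4625 to 16380 normalized counts with poly(I:C) and 1133 to 10480 with PBS.

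The next question was whether the genotypes differed, a contrast that did not choose the genes. None of the 9 passed an adjusted p under 0.05 in limma with Benjamini-Hochberg adjustment in any of 8 genotype comparisons. The share of all 12628 genes that passed was 0% for FancgKO against WT under either treatment and 0.00792% in each of the other 6, which is 1 gene, Mdm4 itself. At an unadjusted p under 0.05, FancgKO set against WT had 46 genes with poly(I:C) and 497 with PBS. The comparisons share libraries with each other, so their directions are not independent.

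With PBS, 8 of the 9 genes had a higher mean log2 value in FancgKO than in WT, by differences from -0.08 (Csf1r) to 1.01 (Ly6c2) with a median of 0.50. Ccr2 had the smallest p of the 9, with 157 ± 86.1 normalized counts in FancgKO and 108 ± 95.4 in WT (SD, n = 4 each) and a log2 difference of 0.74 ± 0.52 (SE, limma adjusted p = 0.999). Ly6c2 differed by 1.01 ± 0.82 (limma, adjusted p = 0.999), with 85.4 ± 89.8 normalized counts in FancgKO and 60.9 ± 84.1 in WT. The SDs exceeded the differences, number 6 being the highest library of both groups. The Ccr2 difference was 0.41 without FancgKO number 6, 1.25 without WT number 6 and 0.92 without both. It was 0.48 without WT number 2.

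Replicate numbers behaved as pairs in this comparison. In 3 of 3 same-number pairs Ly6c2, Fcgr3, Ccr2, Igsf6 and Tifab were higher in FancgKO than in WT, and Csf1r and Irf8 were lower in 3 of 3. Ly6c2 had 21.9 in FancgKO against 7.63 in WT in number 2, 216 against 185 in number 6 and 71.9 against 41.8 in number 7. With the replicate number as a block, Ly6c2 differed by 1.34 ± 0.64 (SE, limma adjusted p = 0.468) and Ccr2 by 0.87 ± 0.43 (limma adjusted p = 0.479), so neither passed. The pairs of numbers 6 and 7 also differed in Xist, the RNA of the inactive X chromosome of females, with 7800 and 18010 normalized counts in FancgKO and at most 24.8 in WT, while number 2 had at most 1.57 in both. With Xist as a covariate the Ccr2 difference was 0.79.

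With poly(I:C), all 9 genes had a lower mean log2 value in FancgKO than in WT, by -0.62 (Igsf6) to -0.05 (Irf8), with a median of -0.31. On the linear scale 4 of them had the higher mean in FancgKO: Ly6c2 (375 against 339 normalized counts), Fcgr3 (75.9 against 68.6), Ccr2 (498 against 456) and Irf8 (313 against 308). Igsf6 had the smallest p (difference -0.62 ± 0.86, SE, limma adjusted p = 1), with 130 ± 94.5 normalized counts in FancgKO and 141 ± 5.24 in WT (SD, n = 3 each). The FancgKO spread came from number 7, at 21.7 against 194 and 176 in numbers 6 and 8. The Igsf6 difference was -0.08 in edgeR, -0.11 in DESeq2 and 0.39 in limma without that library, and in the pairs of numbers 6 and 8 the FancgKO library was the higher one for 8 of the 9 genes.

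With PBS, all 9 genes had a lower mean log2 value in FancgKO_Mdm4Tg than in FancgKO, but not in each same-number pair. The difference of means ran from -1.02 (Fcgr3) to -0.40 (Irf8), with a median of -0.70. Tifab had the smallest p of the 9, with 33.5 ± 3.94 normalized counts in FancgKO_Mdm4Tg (SD, n = 3) and 79.4 ± 60.2 in FancgKO (SD, n = 4), a log2 difference of -0.97 ± 0.51 (SE, limma adjusted p = 0.931). The Tifab values were 31.8, 38.0 and 30.6 in FancgKO_Mdm4Tg and 37.6, 46.6, 168 and 65.3 in FancgKO, of which 168 was number 6, a number FancgKO_Mdm4Tg lacks. The Tifab difference was -0.53 without that library and -0.60 with Xist as a covariate. In the 2 same-number pairs with PBS Tifab was lower in both, Csf1r was higher in both (0.52 and 0.79) and the other 7 genes were mixed. With the replicate block, fitted over all libraries, all 9 genes stayed below 0, from -0.77 (Tifab) to -0.03 (Csf1r), and none passed. With poly(I:C) the same comparison had a median of 0.00, from -0.74 (Klf4) to 0.18 (Ly6c2).

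On the WT background, Mdm4Tg minus WT ran from -0.70 (Fcgr3) to 0.11 (Irf8) with poly(I:C), with a median of -0.33, and from -0.43 (Ly6c2) to 0.11 (Tifab) with PBS, with a median of -0.12. WT includes number 6 under both treatments and Mdm4Tg does not. In the 2 same-number pairs with poly(I:C), 7 genes were lower in Mdm4Tg in both, 1 was higher in both and 1 was mixed. With the replicate block the poly(I:C) differences ran from -0.28 (Ccr2) to 0.27 (Irf8). In 3 of 3 same-number pairs with PBS, Fcgr3, Ccr2, Csf1r, Ly86 and Tifab were higher in Mdm4Tg than in WT. With the replicate block only Irf8 was below 0 with PBS, at -0.03, and the largest difference was 0.58 (Klf4). FancgKO_Mdm4Tg minus WT ran from -1.05 (Klf4) to -0.07 (Irf8) with poly(I:C) and from -0.64 (Tifab) to 0.13 (Ly6c2) with PBS. In the 2 same-number pairs with poly(I:C), 1 gene was lower in FancgKO_Mdm4Tg in both and the other 8 were mixed. With the replicate block the poly(I:C) differences ran from -0.71 (Klf4) to 0.31 (Ly6c2). In 3 of 3 same-number pairs with PBS, Fcgr3 (0.15 to 0.39), Ccr2 (0.22 to 0.81) and Igsf6 (0.15 to 1.54) were higher in FancgKO_Mdm4Tg than in WT. The PBS differences with the replicate block ran from -0.33 (Tifab) to 0.63 (Ly6c2). Without the block, the smallest p in these 4 comparisons was that of Tifab in FancgKO_Mdm4Tg against WT with PBS (-0.64 ± 0.51, SE, limma adjusted p = 1). That difference was -0.11 without WT number 6 and -0.33 with the replicate block.

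**Figure D4:**
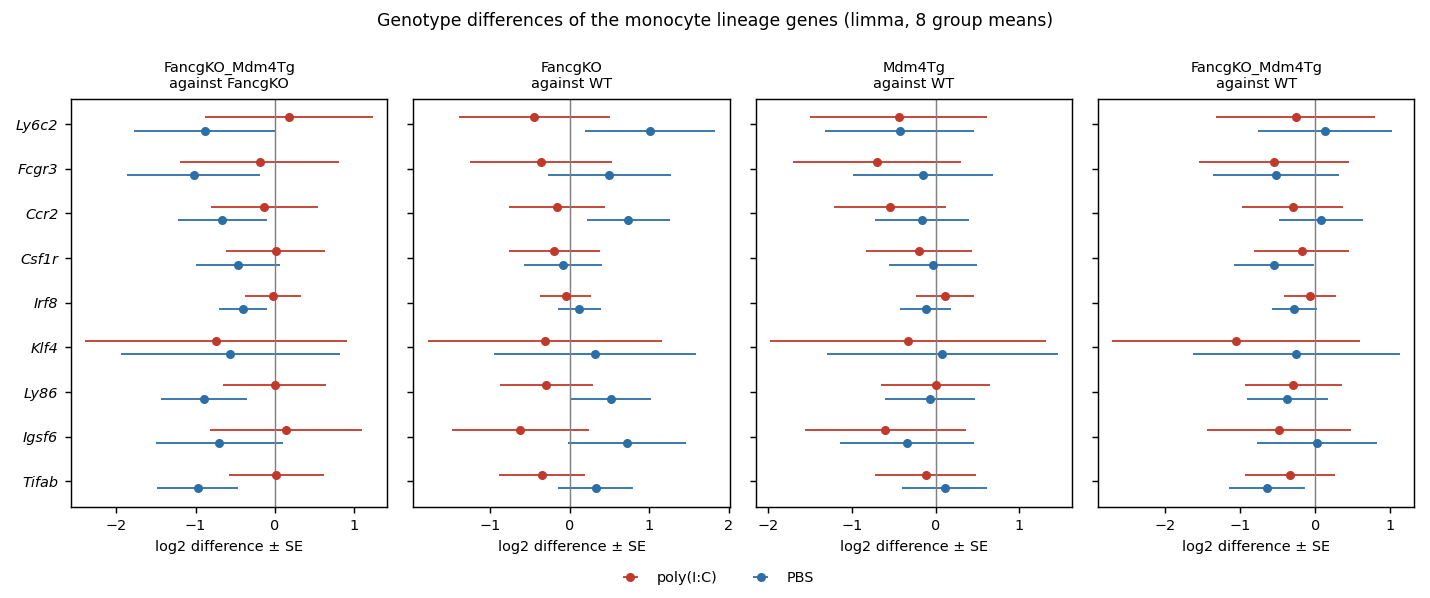
Log2 differences between genotypes (horizontal axis, with the standard error of the limma fit as bars) for the 9 genes, with poly(I:C) above PBS in each pair of points. Means of FancgKO_Mdm4Tg lay below those of FancgKO for 9 of 9 genes with PBS, with a median of -0.70, but within the 2 same-number pairs 1 gene was lower in both, 1 was higher in both and 7 were mixed. With the replicate block, which is not drawn, these 9 differences ran from -0.77 (Tifab) to -0.03 (Csf1r). No difference passed an adjusted p under 0.05.

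The response to poly(I:C) was also compared between genotypes as an interaction. FancgKO minus WT was negative for all 9 genes, from -1.46 (Ly6c2) to -0.11 (Csf1r) with a median of -0.81, the means of all 4 FancgKO and WT groups entering it. Igsf6 had the smallest p of the 9 (difference -1.35 ± 1.13, SE, limma adjusted p = 1), and its difference was -0.34 without FancgKO number 7 with poly(I:C), -0.62 without FancgKO number 6 with PBS and -0.78 with Xist as a covariate. The responses of Mdm4Tg and FancgKO_Mdm4Tg minus that of WT had medians of -0.24 and -0.03, with 7 and 5 of 9 genes below 0. No member passed in the 3 interactions, and neither did any other gene (0%), with 128, 61 and 62 genes at an unadjusted limma p under 0.05. The standard errors of the 9 genes in these interactions were 0.42 to 2.14, and a difference of -1.46 ± 1.26 in Ly6c2 (SE, limma adjusted p = 1) did not pass. With the replicate number as a block, FancgKO minus WT was -1.79 ± 0.94 for Ly6c2 and -1.55 ± 0.80 for Igsf6 (SE, limma adjusted p = 0.993 each). These were larger than without the block, and neither passed. Csf1r alone was then above 0, at 0.03.

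Other genes of monocytes moved with the 9 in the poly(I:C) contrast. These lists were also written with earlier results of these data known, so their direction is not independent evidence. Of 30 further monocyte genes 23 were tested, and 12 rose and 0 fell with poly(I:C) averaged over genotypes (limma, adjusted p under 0.05), against 11.9% higher and 11.6% lower of all genes, with a median log2 difference of 0.59 against 0.01 over all genes. The largest was Cybb, a subunit of the phagocyte oxidase, with 8.68 to 176 normalized counts with poly(I:C) and 5.72 to 40.7 with PBS, a difference of 2.41 ± 0.43 (SE, limma adjusted p = 0.000915). F13a1 rose by 2.08 ± 0.41 (limma adjusted p = 0.00177), the membrane protein Ms4a6c by 1.37 ± 0.22 (limma adjusted p = 0.000637) and the macrophage receptor gene Adgre1 by 1.53 ± 0.45 (limma adjusted p = 0.0183). Without number 6 the count was 13, without numbers 2 and 4 it was 9, and without FancgKO_Mdm4Tg number 8 with poly(I:C) it was 8.

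Among 20 tested genes of the monocyte fate network outside the 9, 7 rose and 3 fell (limma, adjusted p under 0.05), against 11.9% and 11.6% of all genes. In this fit the share that fell was near that of all genes, and the median was 0.32. Those that rose included 4 members of the C/EBP family: Cebpe by 2.03 ± 0.43 (limma adjusted p = 0.00272), Cebpd by 1.47 ± 0.32 (0.00366), Cebpa by 0.89 ± 0.15 (0.000714) and Cebpb by 0.79 ± 0.26 (0.0346). Trib2, a pseudokinase that promotes breakdown of C/EBP alpha, rose by 2.14 ± 0.22 (limma adjusted p = 1.79e-05), with 32.6 to 161 normalized counts with poly(I:C) and 13.4 to 41.3 with PBS. Zeb2, a zinc-finger repressor, rose by 0.48 ± 0.09 (limma adjusted p = 0.00129). Spi1, which encodes PU.1, had 108 to 168 with poly(I:C) and 50.4 to 163 with PBS (0.38 ± 0.15, limma adjusted p = 0.062) and did not pass. Bach2, a repressor best known in B cells, fell by 0.66, Tcf4, a factor of plasmacytoid dendritic cells, by 0.54, and Irf5 by 0.47. With the replicate block 6 rose and 9 fell, beside 2019 and 1884 of all 12628 genes, so the share that fell was then above that of all genes. Without numbers 2 and 4, where fewer libraries were fitted, 5 rose and 0 fell.

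The partners of the receptors did not all move alike. In this contrast 11.9% of all genes were higher and 11.6% lower (limma, adjusted p under 0.05). Where only 1 gene of a short list was called, nothing is read from the count. In the Fc gamma family the signalling chain Fcer1g rose by 1.35 ± 0.25 (limma adjusted p = 0.00108) and Fcgr2b by 1.27 ± 0.22 (limma adjusted p = 0.000762), whereas the neonatal receptor Fcgrt had a difference of -0.72 that did not pass (limma adjusted p = 0.0555). In the Ly6 family Ly6e rose by 0.68 ± 0.13 (limma adjusted p = 0.00148) and Ly6a did not pass (-0.20). Of 5 tested chemokine receptor genes 1 rose, the fractalkine receptor Cx3cr1 (1.02 ± 0.22, limma adjusted p = 0.00355). Of 9 genes around Csf1r, 1 rose, near the share of all genes, and 3 fell. The gene that rose was the common beta chain Csf2rb (0.47 ± 0.14, limma adjusted p = 0.0206). The progenitor receptor Flt3 fell by 1.11, Csf3r by 0.40 and Kit by 0.26. None of the 8 tested partners of Ly86 and Tifab passed: Cd180, which binds MD-1, differed by -0.10, Tifa by 0.13 and Traf6 by 0.05. Of the 3 tested nonclassical monocyte genes, Spn rose by 0.23 and Nr4a1 and Itgal did not pass.

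Markers of other lineages moved in the same libraries. Of 8 tested neutrophil granule genes 7 rose and 1 fell (median 1.76). The sum of all 13 ran from 5937 to 22770 normalized counts with poly(I:C) and from 1604 to 13910 with PBS, while Ly6g had a median of 0 under both treatments. All 4 tested erythroid genes rose (sum 132 to 973 with poly(I:C) and 23.9 to 271 with PBS), as did 4 of 6 mast cell and basophil genes (419 to 810.4 with poly(I:C) and 140.5 to 563 with PBS). Of 10 stem cell genes 9 fell, with a median of -0.76 and sums of 2414 to 4256 with poly(I:C) and 3145 to 5943 with PBS. Of 6 dendritic genes 2 fell, Flt3 and the chemokine receptor Ccr9, which fell by 1.93. Of 3 tested macrophage genes 1 rose, Adgre1, and of 3 B cell genes none passed, and the 1 tested T and NK cell gene, Nkg7, rose by 0.69. All calls are limma with an adjusted p under 0.05, which 11.9% of all genes passed as higher and 11.6% as lower. Where only 1 or 2 genes of a list were called, nothing is read from the count. The part of these cell types in the values of the 9 genes was not tested.

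Interferon-stimulated genes did not go up with the 9. Of 12 tested, 0 rose and 3 fell (limma, adjusted p under 0.05), against 11.9% and 11.6% of all genes, with a median of -0.06. The number that fell was 2 with the replicate block, 2 without number 6 and 0 without numbers 2 and 4. The sum of the 14 listed genes was 604 to 806 normalized counts with poly(I:C) and 642 to 915 with PBS. Ifi44 fell by 0.58 and Irf1 by 0.32, while Mx1 (0.29) and Ifit1 (-0.28) did not pass.

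**Figure D5:**
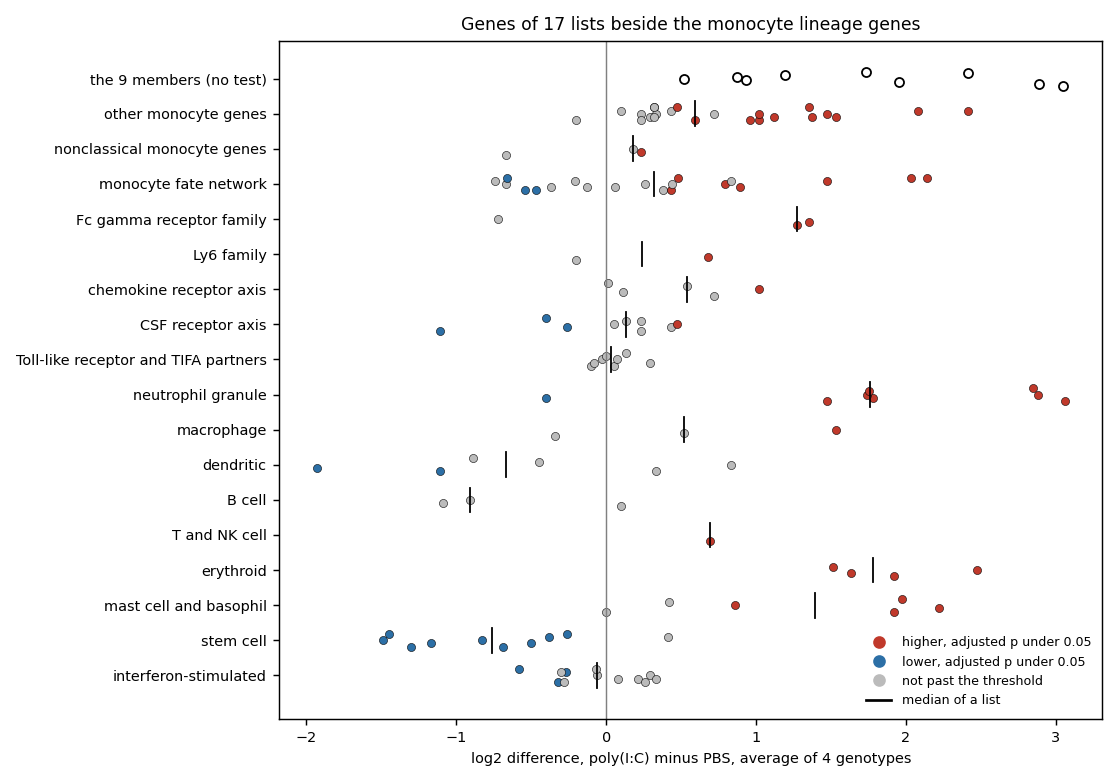
Log2 difference between poly(I:C) and PBS averaged over 4 genotypes (horizontal axis) for the tested genes of 17 lists, one point per gene, with the 9 members as open circles above. Filled points in red were higher and in blue lower at an adjusted p under 0.05, and bars are list medians. The members had a median of 1.73, the neutrophil granule genes 1.76, the stem cell genes -0.76 and the interferon-stimulated genes -0.06.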

How the data were processed

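Polyadenylated RNA of 24 libraries was made with the CATS RNA-seq kit and sequenced, per the labels' protocols. The aligner STAR and the build mm10 are known per the submitters' processing notes. The read counter, its strand setting and the normalization tool are not given in the sources used here. The authors deposited one table of normalized counts (a signal that is not a raw read count, per the file headers), and every value was a whole multiple of the value of 1 read in its library (100% whole at a relative tolerance of 1e-06), so reads were recovered.

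A gene was fitted when 2 or more libraries had 10 or more normalized counts (12628 of 26267 genes). The fit was made by limma 3.58.1 under R 4.3.3 on log2 of the normalized count plus 1, with 8 group means, a trended prior variance and Benjamini-Hochberg adjustment at 0.05. edgeR 4.0.16 and DESeq2 1.42.0 on recovered reads were alternatives, beside other filters, pseudocounts, TMM scaling, covariates for title ending and Xist, a replicate block, a fit of only the groups compared and leaving out each library. Fits were tested on simulated data. Figures used matplotlib 3.10.9 and tables pandas 2.3.3 (numpy 2.4.6, python 3.11.15).

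Named genes are the 9 members, all of a list of up to 8 genes or else its 6 largest differences, and the genes most like the members over libraries. Genes outside that rule (Ly6g, C1qa, Cd14, Lyz2, Fcgr1, Ly6c1, Hmgxb3, Mettl9, Spi1, Zeb2, Bach2, Tcf4, Irf5, Fos, Jun and Egr1) were named to describe the sort, an overlap, a small count or the split by title ending, after their values were seen, and 1 gene of a list is not reported here. The members and lists were chosen with earlier results of these data known. Replicate numbers were treated as pairs where every same-number correlation of deviations from group means exceeded 0.1 over at least 3 pairs: under PBS, FancgKO (0.218 to 0.528), Mdm4Tg (0.293 to 0.378) and FancgKO_Mdm4Tg (0.248 to 0.389), each set against WT; under poly(I:C), FancgKO set against WT (0.392 to 0.617); and the treatment within WT (0.231 to 0.448). Positions are GRCm38 (mm10) from GENCODE, which also gave names to 10006 genes that the file lists by ID alone.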

Additional observations from a re-analysis of the deposited data

Results flagged for a closer look

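The 5 values below, all from title number 6 with PBS, lay far from the other libraries of their group. Fcgr3 had 52.6 normalized counts in FancgKO number 6, against at most 6.53 in the other 3 FancgKO libraries with PBS, and 38.1 in WT number 6, against at most 5.02 in the other 3 WT libraries with PBS. Igsf6 had 137 in FancgKO number 6 (at most 26.1 in the others) and 92.9 in WT number 6 (at most 20.1). Ccr2 had 249.5 in WT number 6, against at most 78.6. In each case the gap to the nearest library, as a share of the range of the group, exceeded Dixon's critical value for 4 samples. This was looked for in 18 sets of 4 values, each member in FancgKO and in WT with PBS, of which 5 met it. Chance gives about 1 in 20 for normally distributed values, which was not checked for these counts. The members share their libraries, so the 5 values are not independent.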

How the results depend on the processing

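No member passed an adjusted p under 0.05 in limma, edgeR or DESeq2 in any of the 11 genotype and interaction comparisons under 18 to 27 alternative settings each (231 in all). The member medians for poly(I:C) against PBS, a description, stayed positive in all 112 settings. They ran from 1.48 to 1.90 for the average and from 0.55 to 1.78 in FancgKO. All moved by under 1 SD (1.06), the pooled within-group SD of the library medians of the members. That bound is wide, since it spans the fall in FancgKO from 1.20 to 0.55. With only genes of a mean of at least 50 the counts that rose were 6 for the further monocyte genes and 4 for the fate network, with fewer genes tested.

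Small genotype differences changed sign, none of them called, and the cause was not tested. Leaving out 1 library gave -1.16 to 0.39 for Igsf6 in FancgKO against WT with poly(I:C), -1.64 to 0.16 for Klf4 in FancgKO_Mdm4Tg against FancgKO with poly(I:C), -1.02 to 0.46 for Ly6c2 in Mdm4Tg against WT with PBS, -1.25 to 0.17 for Ccr2 in Mdm4Tg against WT with poly(I:C), -0.01 to 0.47 for the Irf8 response of Mdm4Tg minus WT, and -0.15 to 0.83 for the Csf1r response of FancgKO_Mdm4Tg minus WT (-0.12 without WT number 6 with PBS). With number 6 left out, chosen after seeing the data, Ly6c2 was at 0.46, Irf8 at -0.07 and Csf1r at -0.13. The Xist covariate put Klf4 at 0.96 for FancgKO_Mdm4Tg against FancgKO and at 1.08 against WT, both with poly(I:C). The replicate block put Ly6c2 at 0.07 for Mdm4Tg against WT with PBS and changed no call of a member, whereas edgeR gave -1.64 and DESeq2 -1.57 for it, against -0.43 in limma.

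Over all genes, FancgKO against WT with PBS had 0 calls in limma, 4 with the replicate block and 1 with the title ending as covariate. The poly(I:C) average had 2974 calls, 3622 in edgeR, 3697 in DESeq2, 3903 with the block, 4395 with the title ending, 1554 without FancgKO_Mdm4Tg number 8 with poly(I:C) and 1209 without numbers 2 and 4. PBS libraries were shallower, and Fcgr3 rested on 1 to 8 reads in those outside number 6.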
